A study of Arabidopsis thaliana with 6 samples.

Results

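The genes described here are 30 genes of Arabidopsis thaliana that write, read, remove or enforce DNA methylation, out of 27655 genes in the deposited table. They were chosen by gene identifier as DNA methyltransferases, histone H3 lysine 9 methyltransferases, factors of RNA-directed DNA methylation, DNA demethylases and related silencing proteins. The rule uses no expression value. RNA came from whole seedlings 10 days old that were kept at 22 °C under long days, 16 h lit and 8 h dark. The groups were wild type Col, with 3 libraries, and a line labelled h3.3ko;HTR5, also with 3 libraries. The line's label joins a knockout of H3.3, the histone H3 variant placed in chromatin outside DNA replication, with the H3.3 gene HTR5. How the line was made, what promoter drives HTR5 in it, whether that copy is altered, and whether the seedlings descend from 1 plant were not stated in the labels. The comparison asks how transcripts differ in h3.3ko;HTR5.

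In plants cytosine methylation is found in CG, CHG and CHH contexts (H is any base but G), and each context has its own upkeep. MET1 with VIM1 copies CG methylation after replication, CMT3 and CMT2 act where histone H3 lysine 9 (H3K9) is methylated, and small interfering RNAs guide DRM2 to new sites in RNA-directed DNA methylation (RdDM). DNA glycosylases of the ROS1 and DME family excise methylated cytosine, and the ROS1 transcript itself is known to fall in Arabidopsis mutants that lose MET1 or RdDM.

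The values were TPM, reads scaled by gene length and library total. Reads worked back from them, over genes matched to the annotation, summed to between 13792031 and 14498093 per library. Nothing in the labels says whether the 3 libraries of a group are separate cultures, and their spread, on which each p-value rests, may be technical. All 3 genes annotated as histone 3.3 (AT5G10980, AT4G40030 and AT4G40040) were lower in h3.3ko;HTR5 (limma adjusted p from 4.08e-09 to 7.70e-05). AT5G10980 stood at 315, 323 and 289 TPM in wild type libraries against 3.19, 5.20 and 5.03 TPM in the line's. The other genes fell less. AT4G40030 was at 331, 309 and 323 TPM against 148, 149 and 155 TPM, and AT4G40040 at 423, 403 and 411 TPM against 290, 298 and 296 TPM. The 3 genes together summed to 1022 to 1069 TPM in wild type and 441 to 456 TPM in the line. Shoot markers (RBCS1A, CAB2, CAB3 and LHB1B1) summed to 38186 to 41054 TPM in wild type and 42249 to 43777 TPM in the line. Root markers (PYK10, TIP2;3, AT1G62500 and SCR) summed to 2046 to 2086 TPM and 1826 to 2006 TPM. Most of that sum was PYK10, with means of 1934 and 1775 TPM. SCR alone of them had a higher mean in the line (48.7 and 50.5 TPM), and no root marker passed. Flower markers (AG, AP3, PI and SEP3) summed to at most 2.11 TPM in any library, and SESA1, CRU3 and SESA3 of the seed markers had no reads in wild type. Shoot and root markers were thus well expressed and flower markers near 0 in all 6 libraries. CAB3 rose (log2 fold change 0.31, limma adjusted p = 0.00134), and 10.65% of its exon windows of 50 bases occur elsewhere in the genome. RBCS1A, CAB2 and LHB1B1 did not pass, with log2 fold changes of 0.10, 0.02 and 0.003. The line's libraries lay wholly above wild type in RBCS1A and CAB3, against 10.8% of all tested genes. A model of the recovered reads (voom) called 2 of the 4 shoot markers higher, beside 7.13% of all genes tested with it. In whole seedlings, fewer cells of a type and less RNA per cell cannot be told apart.

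Of the 30 genes, 3 were lower in h3.3ko;HTR5 and none was higher. The lower genes were ROS1, a DNA demethylase gene, and VIM1 and MET1, which maintain CG methylation. Among all 19013 tested genes 12% were called, 3.7% as higher and 8.32% as lower (limma on log2(TPM + 1), two-sided, Benjamini-Hochberg adjusted p under 0.05 over all tested genes). The 3 of 30 that fell thus stand beside a background of 8.32%, and the share is near it. At an unadjusted p under 0.05 there were 1 higher (SUVH9) and 5 lower (ROS1, VIM1, MET1, CMT3 and IBM1). For this cutoff, here and below, the share of all tested genes was not computed. It is at least the 12% called after adjustment, so counts at this cutoff are no result about the 30 genes. The median log2 fold change of the 30 was -0.02, and that of all tested genes was -0.03. The share of higher genes among all calls was 30.8% with the deposited TPM, 42.8% after median-of-ratios scaling and 46.4% after quantile normalization.

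The libraries of the line lay wholly below those of wild type in 7 of the 30 genes (MET1, VIM1, DDM1, CMT3, IBM1, MORC6 and ROS1), against 20.4% of all tested genes. They lay wholly above in 3 (RDR2, DCL3 and SUVH9), against 10.8%. The other 20 overlapped. The 27 genes that did not pass had log2 fold changes from -0.26 (CMT3) to 0.25 (DCL3). On the log2(TPM + 1) scale the 95% interval of each of the 27 lay within a 1.5-fold difference either way. That scale adds 1 to the TPM and understates differences of low genes such as NRPD1, SUVH5 and DCL3. The bound may therefore not hold for their TPM, and DCL3 had a log2 fold change of 0.37 with voom. A model of the recovered reads (voom), which called 7.13% of its tested genes higher and 8.23% lower, gave 2 higher (DCL3 and SUVH9) and 4 lower (ROS1, VIM1, MET1 and CMT3) of the 30.

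**Figure D1:**
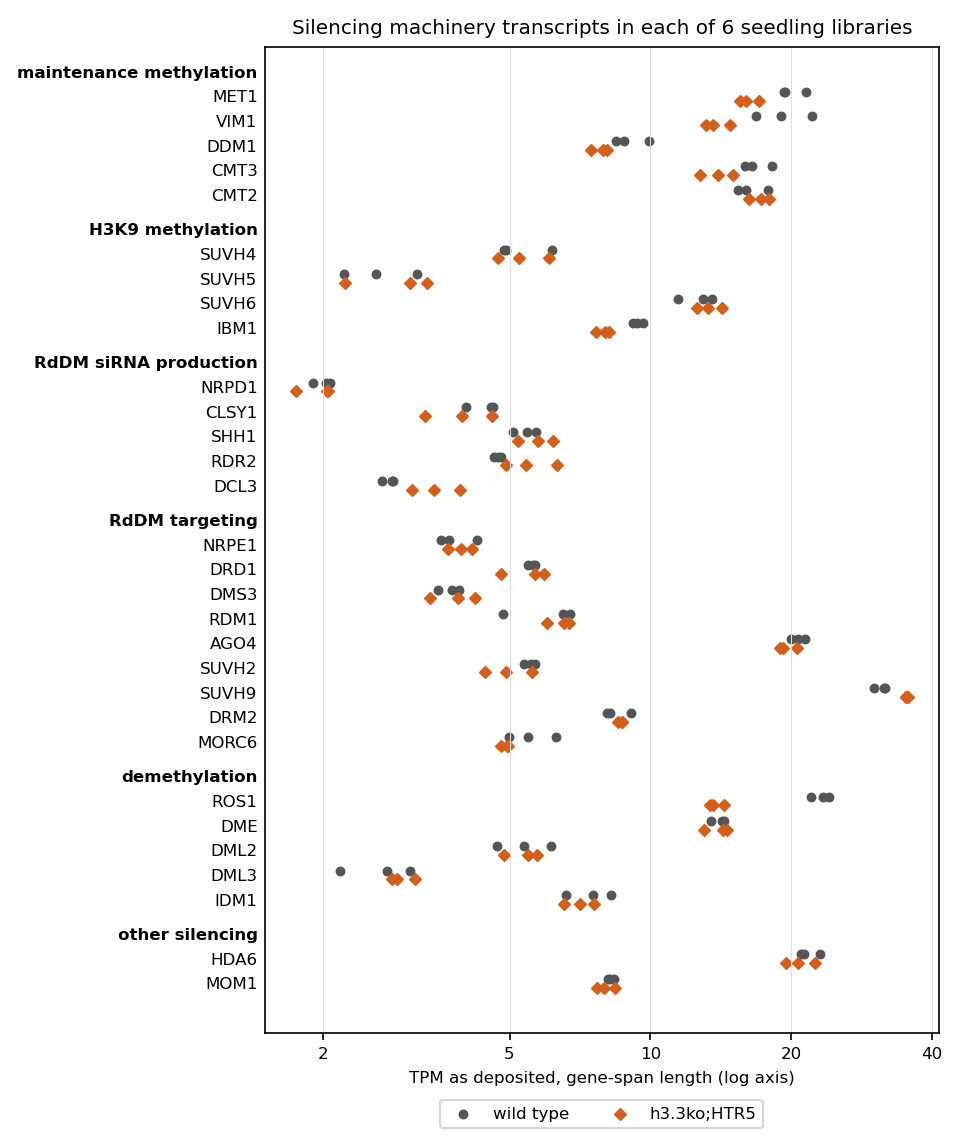
Deposited TPM (log axis) of each of the 30 genes in the 3 wild type libraries (grey circles) and the 3 h3.3ko;HTR5 libraries (orange diamonds), grouped by role. ROS1, at 22.0 to 24.2 TPM in wild type and 13.4 to 14.4 TPM in the line, has the widest gap between the groups.

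**Figure D2:**
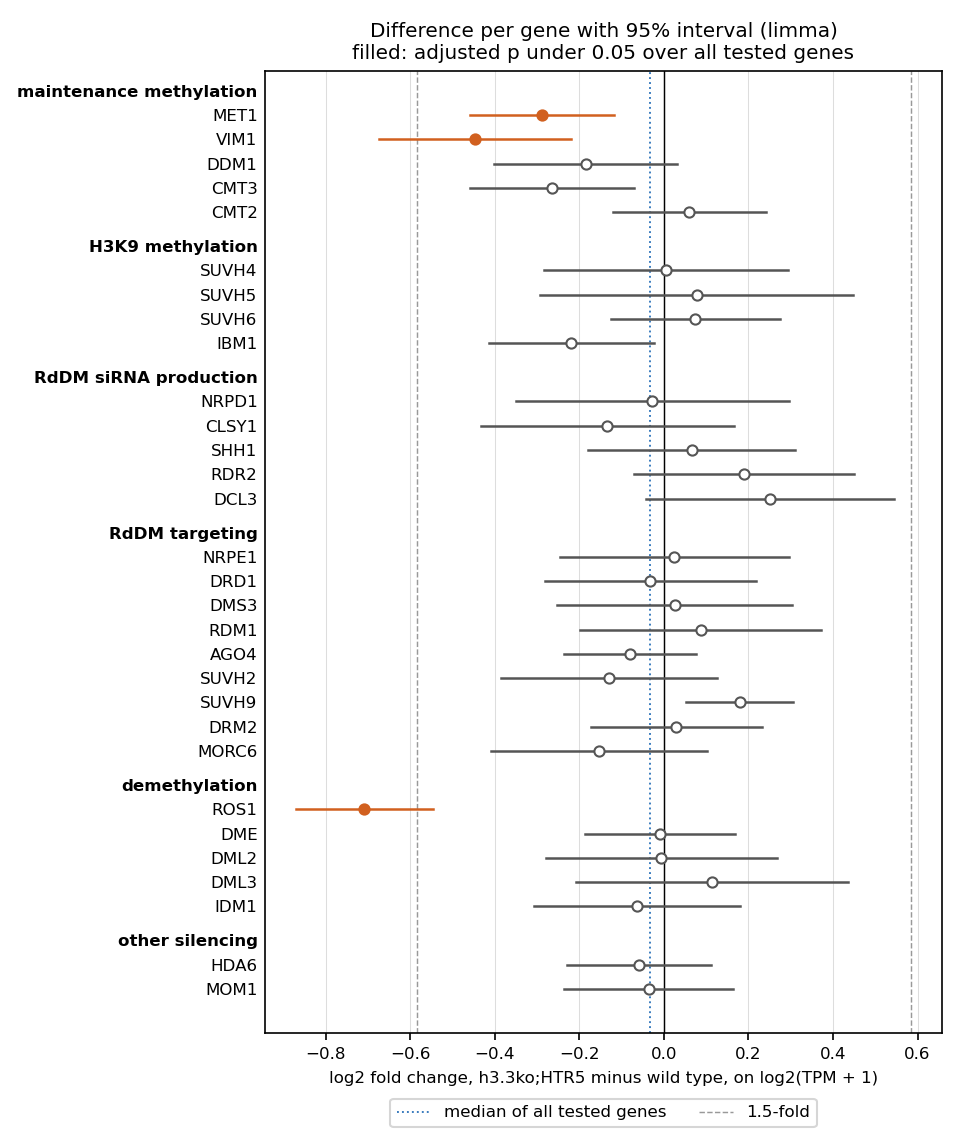
Log2 fold change of h3.3ko;HTR5 minus wild type on log2(TPM + 1) for each gene, with its 95% interval from limma. Filled points (MET1, VIM1 and ROS1) passed an adjusted p of 0.05, dashed lines mark a 1.5-fold difference, and the dotted line marks the median of all tested genes.

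ROS1 (AT2G36490, chr2:15307907-15314807, minus strand, TAIR10.1) encodes the DNA glycosylase that removes methylated cytosine in vegetative tissue. It was measured at 24.2, 22.0 and 23.4 TPM in the 3 wild type libraries, in replicate order, against 14.4, 13.4 and 13.6 TPM in those of h3.3ko;HTR5. These are 1078, 959 and 1012 reads in wild type and 640, 610 and 593 reads in the line. Every library of the line was below every wild type library, the nearest being 14.4 and 22.0 TPM. The means were 23.2 ± 1.09 and 13.8 ± 0.52 TPM (SD, n = 3 each), 1.68-fold lower in the line. The log2 fold change was -0.71 ± 0.07 (SE, limma adjusted p = 3.53e-04). ROS1 fell under all 16 alternative settings, leave-outs of each single library included, with log2 fold changes from -0.74 to -0.67 (limma adjusted p from 8.75e-08 to 0.00472). By p-value it ranked 81st among the 1582 genes called lower.

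The other members of the glycosylase family did not pass. DME (AT5G04560), which acts in the central cell and in pollen and is also transcribed in seedlings, was measured at 14.4, 13.5 and 14.3 TPM in wild type libraries against 13.0, 14.3 and 14.6 TPM in the line's. Its groups overlapped, with a log2 fold change of -0.01 (95% interval from -0.19 to 0.17, limma adjusted p = 0.957). DML2 (AT3G10010), a demethylase of vegetative tissue, was at 6.12, 5.37 and 4.71 TPM against 5.48, 5.74 and 4.86 TPM. DML3 (AT4G34060), its relative, was at 2.73, 2.17 and 3.06 TPM against 2.87, 2.80 and 3.14 TPM. IDM1 (AT3G14980), a histone acetyltransferase that guides ROS1 to its sites, was at 7.52, 6.60 and 8.22 TPM against 7.57, 7.08 and 6.54 TPM. All 3 overlapped between the groups (limma adjusted p = 0.984, 0.674 and 0.767). Of the 5 demethylation genes 1 fell and 4 did not pass, beside 8.32% of all tested genes called lower.

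Relative to DME the change in ROS1 can be read within each library, where library scaling cancels. On a TPM scale recomputed from exon length, ROS1 stood at 1.83, 1.78 and 1.79 times the level of DME in wild type and at 1.21, 1.02 and 1.02 times that level in the line. The ratio of ROS1 to MET1, 2 genes that both fell, was 1.42, 1.30 and 1.24 in wild type and 0.96, 0.98 and 0.97 in the line. ROS1 exceeded MET1 in all wild type libraries and was below it in all libraries of the line. The ratio of ROS1 to CMT3 was 1.01 to 1.15 in wild type and 0.70 to 0.89 in the line.

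The 250 bases before the annotated start of ROS1 are shown next to those of DME, its relative whose libraries overlapped, so that CG pairs, the sites that MET1 maintains, can be compared. They are from the TAIR10.1 genome, 5′ to 3′ on the strand of the gene, with every CG pair in capitals, for ROS1 chr2:15314808-15315057 on the minus strand and for DME chr5:1308849-1309098 on the plus strand.
ROS1: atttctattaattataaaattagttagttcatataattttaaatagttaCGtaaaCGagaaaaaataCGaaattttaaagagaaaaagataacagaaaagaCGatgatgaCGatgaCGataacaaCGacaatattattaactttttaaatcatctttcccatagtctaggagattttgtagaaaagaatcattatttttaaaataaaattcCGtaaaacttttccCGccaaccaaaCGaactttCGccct
DME: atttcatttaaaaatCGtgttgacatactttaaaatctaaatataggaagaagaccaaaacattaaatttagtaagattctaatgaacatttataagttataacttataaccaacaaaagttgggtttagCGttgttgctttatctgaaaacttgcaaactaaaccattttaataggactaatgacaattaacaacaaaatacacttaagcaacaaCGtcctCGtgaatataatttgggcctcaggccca
The ROS1 sequence holds 11 CG pairs and that of DME 4. Over 27444 promoters of the same length the median was 5 CG pairs (quartiles 3 and 7), and 90.8% of them held fewer than 11. The 30 genes had 0 to 11, with a median of 4, and RDM1 also held 11. Methylation of these bases was not measured in the RNA-seq data. The ROS1 sequence also holds TTTCCCGC, a motif of E2F type, beginning 30 bases before the start. That motif and TTTGGCGC, TTTCGCGC and TTTGCCGC, of equal length and so not contained in each other, were searched on both strands after the values were known. Of the 30 genes ROS1 alone held any of the 4, against 1.41% of all promoters (0.619% for TTTCCCGC). Of 14 cell division genes MCM2 and MCM5 held TTTCCCGC, 14 and 19 bases before the start, and neither was called with limma on TPM. TSO2, MCM7 and CDT1A, the 3 of the 14 that were called lower, held none of the 4. MET1 and VIM1 held none of the 4 in this window.

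**Figure D3:**
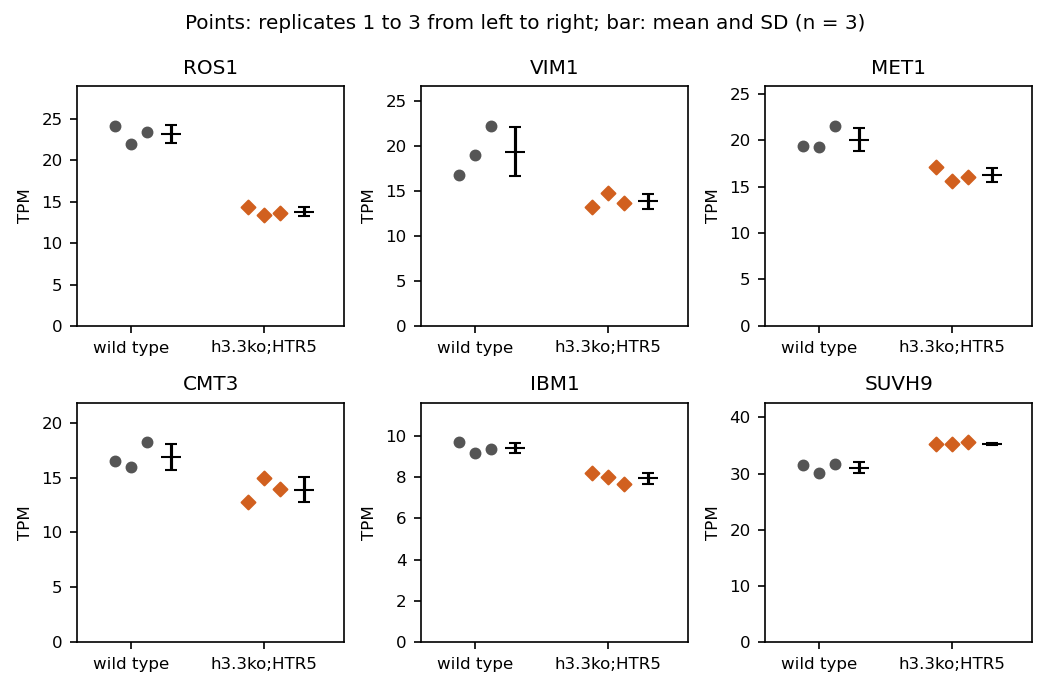
Deposited TPM of ROS1, VIM1, MET1, CMT3, IBM1 and SUVH9, the 6 genes with an unadjusted p under 0.05, with each library as a point (replicates 1 to 3 from left to right) and the mean ± SD of 3 libraries beside them. The line's libraries lie below wild type in the first 5 and above it in SUVH9, at 35.2 to 35.5 TPM against 30.04 to 31.7 TPM.

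Of 5 genes that maintain methylation, 2 fell and 3 did not pass, with a median log2 fold change of -0.26, and in 4 of the 5 the line's libraries lay wholly below wild type. Over all tested genes 8.32% were called lower and 20.4% lay wholly below. VIM1 (AT1G57820, chr1:21413981-21418115, minus strand) encodes a protein that binds hemimethylated CG and brings MET1 to it. It was measured at 16.8, 19.0 and 22.2 TPM in wild type libraries against 13.2, 14.8 and 13.6 TPM in the line's. Wild type replicate 3 was the highest library and h3.3ko;HTR5 replicate 1 the lowest. VIM1 was 1.40-fold lower on the means, which were 19.3 ± 2.71 and 13.8 ± 0.83 TPM (SD, n = 3 each). The log2 fold change was -0.45 ± 0.10 (SE), with a limma adjusted p of 0.0192. The call held in 11 of 16 alternatives and was lost without wild type replicate 2 or 3, without h3.3ko;HTR5 replicate 1 or 3, and with no variance trend (limma adjusted p = 0.0541 to 0.0671).

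MET1 (AT5G49160, chr5:19932114-19938470, plus strand) encodes the CG methyltransferase itself. It was measured at 19.4, 19.3 and 21.5 TPM in wild type libraries against 17.1, 15.6 and 16.1 TPM in the line's. The groups did not overlap, and the lowest wild type library and the highest library of the line were 19.3 and 17.1 TPM. MET1 was 1.24-fold lower on the means, 20.1 ± 1.27 and 16.2 ± 0.77 TPM (SD, n = 3 each). The log2 fold change was -0.29 ± 0.08 (SE), with a limma adjusted p of 0.0364. This call held in 5 of 16 alternatives. Among the settings that lost it were leaving out any 1 of the 6 libraries (limma adjusted p = 0.0501 to 0.129), no filter on low values (0.051), no variance trend (0.0609), median-of-ratios scaling (0.0666) and quantile normalization (0.0737).

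The bases before MET1 (chr5:19931864-19932113, plus strand) and VIM1 (chr1:21418116-21418365, minus strand), partners in the same step that both fell, are given in the same form.
MET1: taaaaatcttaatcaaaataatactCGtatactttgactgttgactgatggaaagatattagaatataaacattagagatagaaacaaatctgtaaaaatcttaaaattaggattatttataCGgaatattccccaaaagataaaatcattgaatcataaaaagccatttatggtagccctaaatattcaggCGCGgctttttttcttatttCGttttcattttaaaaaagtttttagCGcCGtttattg
VIM1: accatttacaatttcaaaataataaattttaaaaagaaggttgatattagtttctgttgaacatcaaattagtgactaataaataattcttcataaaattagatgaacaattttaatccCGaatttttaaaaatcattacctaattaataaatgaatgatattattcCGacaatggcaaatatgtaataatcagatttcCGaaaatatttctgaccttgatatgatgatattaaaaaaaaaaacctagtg
They hold 7 and 3 CG pairs, above and below the median of 5 for all promoters.

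CMT3 (AT1G69770), the CHG methyltransferase, was measured at 16.5, 16.0 and 18.2 TPM in wild type libraries against 12.8, 14.99 and 13.9 TPM in the line's. Its groups did not overlap, but the difference did not pass the test (log2 fold change -0.26 ± 0.09 SE, limma adjusted p = 0.0792), and it passed with voom (adjusted p = 0.0287). DDM1 (AT5G66750), the chromatin remodeller that opens heterochromatin to methyltransferases, was at 8.42, 8.78 and 9.93 TPM against 7.48, 7.91 and 8.08 TPM. Here too each library of the line was below each wild type library, with a log2 fold change of -0.19 (95% interval from -0.40 to 0.03, limma adjusted p = 0.256). CMT2 (AT4G19020), which methylates CHH sites of long transposons, was at 16.0, 15.4 and 17.8 TPM against 16.2, 17.2 and 17.9 TPM, with overlapping groups. The ratio of MET1 to CMT2 per exon length was 0.96, 0.99 and 0.96 in wild type and 0.83, 0.72 and 0.71 in the line, without overlap. The ratio of VIM1 to MET1 overlapped, at 1.15 to 1.37 and 1.02 to 1.259.

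Cell division genes, a list chosen with earlier results of these data known, were measured in the same libraries. Of 14 such genes, all tested, 3 fell, none rose and 11 did not pass, with a median log2 fold change of -0.26, beside 8.32% of all tested genes called lower. The line's libraries lay wholly below wild type in 9 of the 14, against 20.4% of all tested genes, and the summed level of the 14 was 331 to 386 TPM in wild type and 304 to 314 TPM in the line. TSO2, a ribonucleotide reductase subunit gene, was at 92.6, 99.8 and 112 TPM against 77.7, 77.1 and 81.4 TPM, a log2 fold change of -0.36 ± 0.07 (SE) with a limma adjusted p of 0.00772. MCM7, of the replicative helicase, was at 17.3, 18.5 and 22.0 TPM against 13.9, 14.6 and 14.8 TPM (limma adjusted p = 0.0238). CDT1A, which licenses origins, was at 13.4, 13.1 and 14.4 TPM against 11.3, 10.6 and 9.55 TPM (limma adjusted p = 0.0293). TSO2 kept its call in all 16 alternatives, while MCM7 and CDT1A kept theirs in 10 each. With voom 5 of the 14 were lower, beside 8.23% of all genes tested with it. TSO2 and MCM7 overlap other annotated genes. The mitotic genes CYCB1;1, CYCB1;2, CDKB2;1 and KNOLLE did not pass, and CYCB1;2 was at 16.3, 16.6 and 19.0 TPM against 20.9, 19.3 and 19.3 TPM. Wild type replicate 3 was the highest library for MET1, VIM1, DDM1 and CMT3 and also for MCM7 and TSO2. That was not particular to these genes. The same library was highest for SUVH4, IDM1, HDA6 and AGO4 (6.18, 8.22, 23.0 and 21.5 TPM), whose groups overlapped. Whether the levels of dividing cells have a part in the MET1 and VIM1 values was not tested.

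**Figure D4:**
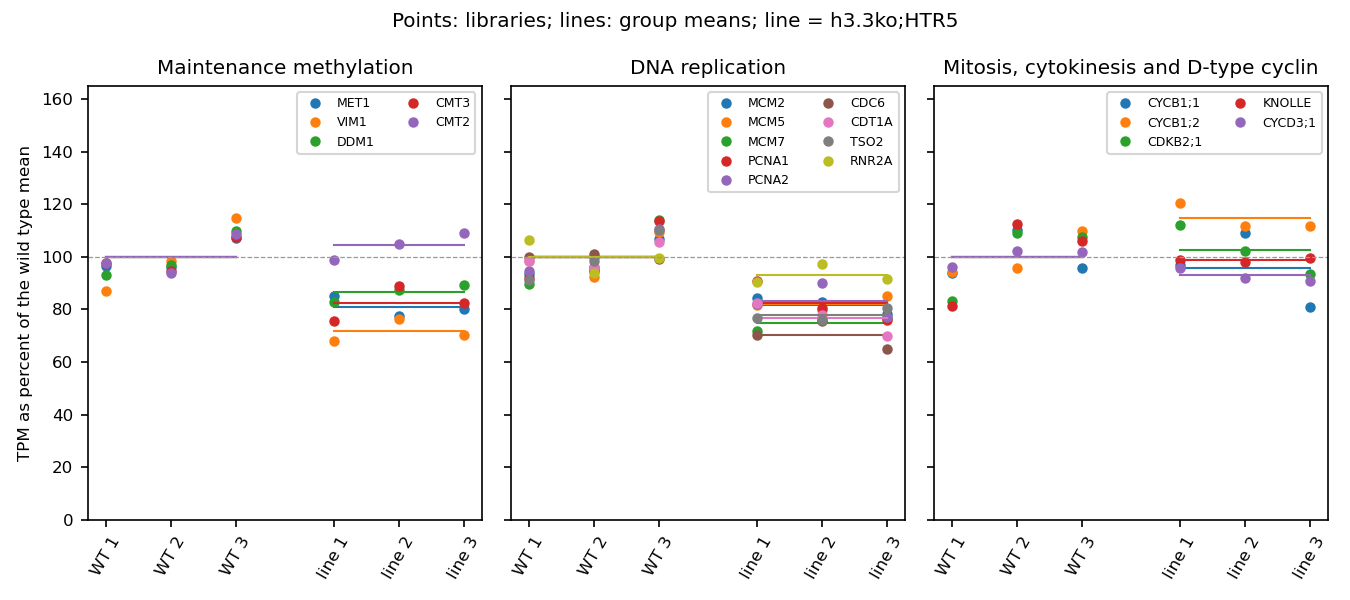
TPM of each library as percent of the wild type mean for 5 maintenance methylation genes, 9 DNA replication genes and 5 mitosis, cytokinesis and D-type cyclin genes, with group means as lines (this split of the 14 cell division genes was made after their values were seen). MET1 lies at 77.6% to 85.2% and VIM1 at 68.1% to 76.4% in the line, TSO2 at 76.1% to 80.4%, and CYCB1;2 above 100%.

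Histone H3K9 methyltransferase genes did not pass in either direction, with a median log2 fold change of 0.04 over the 4 genes of this group, IBM1 included (limma on TPM, with 1 lower at an unadjusted p under 0.05 and none called with voom). SUVH4 (AT5G13960), the main H3K9 methyltransferase that works with CMT3, was measured at 4.87, 4.93 and 6.18 TPM in wild type libraries against 4.73, 5.24 and 6.06 TPM in the line's. SUVH5 (AT2G35160), a relative with overlapping function, was at 2.21, 2.59 and 3.18 TPM against 2.22, 3.06 and 3.33 TPM. SUVH6 (AT2G22740), the third of them, was at 13.5, 13.0 and 11.5 TPM against 13.3, 12.6 and 14.2 TPM. The groups overlapped in all 3 (limma adjusted p = 0.987, 0.818 and 0.657). SUVH5 rests on 49 to 72 reads per library and was among the least expressed of the 30 genes.

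IBM1 (AT3G07610, chr3:2425884-2433113, plus strand) encodes the histone demethylase that keeps H3K9 methylation out of gene bodies. It was measured at 9.67, 9.18 and 9.35 TPM in wild type libraries against 8.17, 7.99 and 7.65 TPM in the line's. All 3 libraries of the line were below all 3 of wild type, and the spread within each group was small (SD of 0.25 and 0.27 TPM). The log2 fold change was -0.22 ± 0.09 (SE), with an unadjusted p of 0.0312 from limma and an adjusted p of 0.139, so the difference did not pass. In Arabidopsis IBM1 makes a short and a long transcript, which depend on methylation of an intron, and gene totals do not separate them.

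The production of small interfering RNAs for RdDM involved 5 genes, none of which passed with limma on TPM (0 at an unadjusted p under 0.05). With voom 1 was higher, beside 7.13% of all genes tested with it. DCL3 (AT3G43920), which cuts double-stranded RNA into small interfering RNAs, was measured at 2.67, 2.80 and 2.82 TPM in wild type libraries against 3.09, 3.45 and 3.92 TPM in the line's. Every library of the line was above every wild type library, on 129 to 132 reads against 149 to 185. Its log2 fold change was 0.25 (95% interval from -0.04 to 0.54, limma adjusted p = 0.259), and with voom it passed (log2 fold change 0.37, adjusted p = 0.0431). DCL3 overlaps AT3G43930, so its values may hold reads of that gene. RDR2 (AT4G11130), which makes the RNA double-stranded, was at 4.80, 4.73 and 4.62 TPM against 5.41, 6.30 and 4.92 TPM, again without overlap (log2 fold change 0.19, limma adjusted p = 0.34).

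NRPD1 (AT1G63020), the largest subunit of RNA polymerase IV that starts this pathway, was at 1.90, 2.06 and 2.02 TPM in wild type libraries against 2.04, 2.03 and 1.74 TPM in the line's. CLSY1 (AT3G42670), a remodeller that recruits polymerase IV, was at 4.61, 4.03 and 4.56 TPM against 3.95, 3.29 and 4.59 TPM. SHH1 (AT1G15215), which reads H3K9 methylation for polymerase IV, was at 5.70, 5.44 and 5.09 TPM against 6.18, 5.21 and 5.76 TPM. All 3 had overlapping groups, with log2 fold changes of -0.03, -0.13 and 0.07 (limma adjusted p = 0.931, 0.576 and 0.761).

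Of the 9 genes that take RdDM to its targets none passed with limma on TPM, and 1, SUVH9, was higher at an unadjusted p under 0.05. With voom the same 1 was higher, beside 7.13% of all genes tested with it. SUVH9 (AT4G13460, chr4:7823894-7827004, minus strand) encodes a protein that binds methylated DNA and recruits RNA polymerase V. It was measured at 31.5, 30.04 and 31.7 TPM in wild type libraries against 35.3, 35.2 and 35.5 TPM in the line's. The groups did not overlap, and the 3 libraries of the line differed by less than 1 TPM (SD of 0.18 against 0.92 TPM in wild type). The log2 fold change was 0.18 ± 0.06 (SE, limma adjusted p = 0.0702). It passed in 3 of 16 alternatives, after median-of-ratios scaling (adjusted p = 0.0286), after quantile normalization (0.0355) and with voom (0.0152). SUVH2 (AT2G33290), its relative in the same role, was at 5.66, 5.55 and 5.36 TPM against 5.60, 4.43 and 4.91 TPM, with a log2 fold change of -0.13 (limma adjusted p = 0.521). The summed TPM of all 9 targeting genes was 88.7 to 91.5 in wild type and 92.0 to 94.2 in the line.

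Polymerase V and its helpers overlapped between the groups. NRPE1 (AT2G40030), the largest subunit of polymerase V, was at 4.26, 3.58 and 3.71 TPM in wild type libraries against 4.15, 3.93 and 3.70 TPM in the line's. DRD1 (AT2G16390), DMS3 (AT3G49250) and RDM1 (AT3G22680), which together load polymerase V onto chromatin, had log2 fold changes of -0.03, 0.03 and 0.09. RDM1 had 1 low wild type library, at 4.84 TPM in replicate 1 against 6.72 and 6.50 TPM in the others. AGO4 (AT2G27040), which carries the small RNAs to the target, was at 20.7, 19.98 and 21.5 TPM against 18.9, 20.6 and 19.2 TPM (log2 fold change -0.08, limma adjusted p = 0.521). DRM2 (AT5G14620), the methyltransferase that RdDM guides, was at 9.10, 8.10 and 8.21 TPM against 8.53, 8.72 and 8.71 TPM (log2 fold change 0.03, 95% interval from -0.17 to 0.23, limma adjusted p = 0.88). MORC6 (AT1G19100), an ATPase that compacts silenced chromatin, was at 6.28, 5.48 and 4.99 TPM against 4.94, 4.80 and 4.97 TPM. MORC6 did not overlap, by a margin of under 0.1 TPM, and did not pass (log2 fold change -0.15, limma adjusted p = 0.439).

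Of the 2 other silencing genes, HDA6 (AT5G63110), a histone deacetylase that works with MET1, was at 21.3, 21.0 and 23.0 TPM in wild type libraries against 20.7, 19.5 and 22.5 TPM in the line's. MOM1 (AT1G08060), which silences transposons without loss of their methylation, was at 8.19, 8.12 and 8.36 TPM against 8.38, 7.67 and 7.95 TPM. Both overlapped, with log2 fold changes of -0.06 and -0.04 (limma adjusted p = 0.685 and 0.846).

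Compared per exon length, which allows levels of different genes to be set side by side, the 30 genes spanned 2.07 TPM (SUVH5) to 28.5 TPM (AGO4) in wild type. AGO4 was highest, and its libraries did not overlap those of SUVH9 at 26.0 TPM. SUVH9, HDA6, ROS1, VIM1 and CMT3 followed at 26.0, 25.3, 25.2, 24.5 and 23.3 TPM, and each overlapped the next. CMT2 (19.8 TPM) and MET1 (19.2 TPM) overlapped each other. DML3, NRPD1 and SUVH5 were lowest, at 3.02, 2.23 and 2.07 TPM, and NRPD1 and SUVH5 overlapped. ROS1 moved from rank 4 of 30 in wild type to rank 9 in the line, at 15.1 TPM. DME was at rank 10 in both. These orders rest on 49 to 1078 reads per gene and library. Exons made up 40.8% to 97.6% of the gene span used for the deposited values, so the order on the deposited scale differs.

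Further genes of the same pathways gave 3 higher and 1 lower of 39 tested, from a list of 49, beside 3.7% and 8.32% of all tested genes. The median log2 fold change was 0.07, and voom called 5 higher and none lower, beside 7.13% and 8.23%. FDM2 (AT4G00380, chr4:167497-171010, plus strand), an RdDM factor that binds RNA, was at 3.61, 3.52 and 3.64 TPM in wild type libraries against 7.46, 8.54 and 7.94 TPM in the line's. It rose 2.22-fold (log2 fold change 0.97 ± 0.11 SE, limma adjusted p = 5.07e-04) and passed in all 16 alternatives, on 78 to 82 reads against 169 to 198. Of its exon windows of 50 bases 12.88% occur elsewhere in the genome, which leaves its share of reads among similar genes uncertain. Its relative FDM1 did not pass, at 15.2, 15.4 and 16.0 TPM against 16.5, 17.1 and 15.6 TPM. RDM4, a factor of RNA polymerase assembly needed in RdDM, was at 5.23, 5.58 and 6.24 TPM against 7.69, 8.04 and 7.41 TPM (limma adjusted p = 0.0387). AT1G05970, annotated as an RNA-binding protein, was at 5.01, 5.34 and 5.28 TPM against 7.39, 8.52 and 6.81 TPM (limma adjusted p = 0.0232). RDM4 and AT1G05970 rose, and their groups did not overlap, but RDM4 lost its call in 7 of 16 alternatives and AT1G05970 without any 1 library except h3.3ko;HTR5 replicate 3. RDM4 was lost without any 1 library except wild type replicate 3.

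SAHH1, whose enzyme clears the by-product of methyl transfer, was at 976, 974 and 1029 TPM in wild type libraries against 877, 921 and 894 TPM in the line's. It fell by 0.15 on the log2 scale (limma adjusted p = 0.033). That call held in 7 of 16 alternatives. The losses included median-of-ratios scaling, voom, no filter on low values, no variance trend, and the fits in which wild type replicate 2, wild type replicate 3, h3.3ko;HTR5 replicate 1 or h3.3ko;HTR5 replicate 3 was left out. Of the list's 10 untested genes, DRM1, the close relative of DRM2, had no reads in any library. VIM3, a relative of VIM1, was at 10.0, 10.7 and 11.7 TPM against 10.5, 9.61 and 8.28 TPM, with overlap, and was chosen for mention after its values were seen.

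Loci known in Arabidopsis to be kept silent or set in level by DNA methylation were looked at in the same libraries. Of 13 such loci, 4 were expressed enough to be tested and 1, QQS, fell. Over all tested genes 8.32% were called lower and 20.4% lay wholly below, and 4 loci are too few to set against these shares. QQS, an orphan gene known for methylation that varies between plants of the same line, was at 4.88, 3.57 and 3.24 TPM in wild type libraries against 1.40, 1.54 and 1.25 TPM in the line's. Each library of the line was below each of wild type, on 66 reads in all against 24 (log2 fold change -1.02 ± 0.16 SE, limma adjusted p = 0.0034). The call held in all 15 alternatives that gave a value. EPF2, BNS and PAI1 did not pass. The other 9, FWA, SDC and SUP among them, had at most 3 reads over the wild type libraries and at most 6 over those of the line. Only HDG9 and SUP had no reads in any library. A library count of 0 allows up to 3 reads, or 0.10 to 0.11 TPM for HDG9 and 0.41 to 0.43 TPM for SUP. The rest had a few reads, with 4 for RMG1 in h3.3ko;HTR5 replicate 2. Whether any of the 9 was released was not tested at this depth. These floors cover counting error only.

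**Figure D5:**
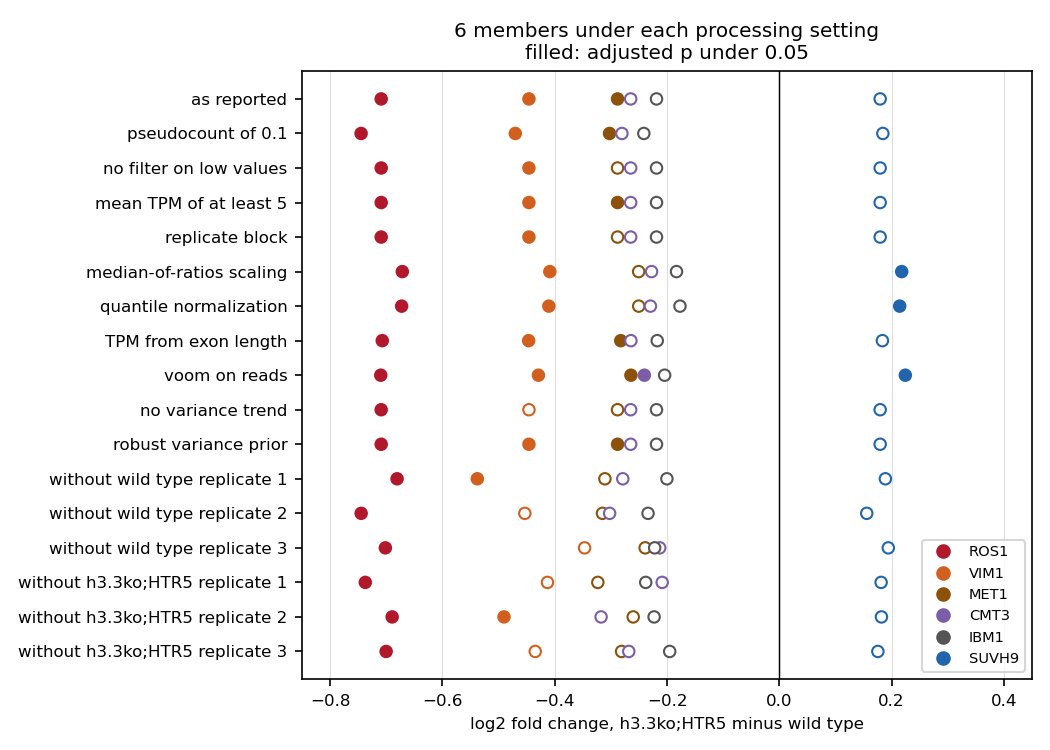
Log2 fold change of ROS1, VIM1, MET1, CMT3, IBM1 and SUVH9 as reported and under each of 16 alternative settings, filled where the adjusted p was under 0.05. ROS1 is filled in every row, VIM1 in 11 alternatives, MET1 in 5, SUVH9 in 3 and CMT3 in 1, and no gene of the 6 crosses 0.

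Reads of 10 of the 30 genes may include reads of an overlapping gene, since it is unknown whether the counting used strand. They are SUVH4, SUVH6, SHH1, DCL3, DRD1, DMS3, RDM1, SUVH2, IDM1 and HDA6, and none of ROS1, VIM1 and MET1 is among them. Shared sequence was rare, with at most 0.93% of exon windows (NRPE1) found elsewhere. Of the seed storage genes, CRA1 rose, at 0.74, 0.83 and 0.38 TPM in wild type and 3.33, 1.23 and 4.68 TPM in the line (limma adjusted p = 0.0292), and CRU3 had 0 reads in wild type and 59 over the line's libraries. The CRA1 call held in 9 of 15 alternatives, with log2 fold changes from 0.92 to 2.07, and was lost with no variance trend and without any 1 library except h3.3ko;HTR5 replicate 2. The summed level of the 4 seed genes was 0.38 to 0.83 TPM in wild type and 1.42 to 8.47 TPM in the line. Within the line it was lowest in replicate 2. In that library ROS1 and MET1 had their lowest values of the line (13.4 and 15.6 TPM) and VIM1 its highest (14.8 TPM). The part of these seed transcripts in the results was not tested.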

How the data were processed

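Per the labels' protocols, total RNA of seedlings was extracted with a Takara plant kit and 6 libraries were made with a NEBNext Ultra kit. Tools named in the submitters' processing notes are HISAT2 2.1.10, fastp 0.20.1 and DESeq2 1.26.0, with TAIR10 as the build. Which tool counted reads, and whether it used strand, is unknown here. The authors deposited TPM values for 27655 genes in 3 wild type and 3 h3.3ko;HTR5 columns, each adding to 1000000, and 0 columns of other samples were present.

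With gene span as length, deposited TPM gave whole reads in all libraries for 22980 of 22985 genes with reads (99.98%, tolerance 0.02 reads). With exon length 20 of 19089 did. Identifiers of 27445 genes matched the TAIR10.1 annotation, whose nuclear chromosomes are those of TAIR10, and gene names are RefSeq symbols or synonyms.

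Log2(TPM + 1) values of the 19013 genes whose mean TPM reached 1 were tested with limma 3.58.1 (R 4.3.3; lmFit, then eBayes with a variance trend). P-values were two-sided and adjusted by Benjamini-Hochberg over all tested genes, with a threshold of 0.05. Means ± SD are of deposited TPM. Scripts were tested on simulated data. The alternatives were a pseudocount of 0.1, no filter, a mean TPM of at least 5, a replicate block, median-of-ratios and quantile scaling, TPM from exon length, voom on recovered reads, no variance trend, a robust prior and leaving out each library.

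All 30 genes were accounted for. Those past the threshold, those with an unadjusted p under 0.05, the most changed of each role and the most and least expressed were given in every library, and genes past the threshold were named from other lists. The rule for the 30 genes uses no expression value, but the genes and lists were chosen with earlier results of these data known. They are thus no independent support for a direction.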

Additional observations from a re-analysis of the deposited data

How the results depend on the processing

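Of the 30 genes, 19 kept their direction under every alternative that gave them a value, 16 of them under all 16 and 3 (CLSY1, DCL3 and DML3) under 15, since they had no value with a mean TPM of at least 5. The number lower was 3 as reported, 1 without a variance trend (ROS1) and 1 to 2 with a library left out, and ROS1 was among them each time. The number higher was 0 as reported, 1 after median-of-ratios scaling and 1 after quantile normalization (SUVH9 both times) and 2 with voom. All genes called were 2285, 1443 without a variance trend and 1289 to 2084 with a library left out. The wider list had 4 calls, 2 with no filter and 1 to 3 with a library left out, and the cell division list had 3, 5 with voom and 1 to 3 with a library left out. ROS1 was the single call of the 30 when wild type replicate 2, wild type replicate 3, h3.3ko;HTR5 replicate 1 or h3.3ko;HTR5 replicate 3 was left out. The causes of these moves were not tested.

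The labels do not say whether replicate numbers pair the samples. Over all tested genes, correlations of deviations from the group means were -0.043, 0.024 and -0.012 for the same number. For unlike numbers they ran from -0.055 to 0.060. No pairing was seen in these values, which cannot exclude it for single genes. With the replicate block 2 of the 30 were lower (VIM1 and ROS1) and 0 higher, MET1 and SAHH1 were not called (MET1 at a limma adjusted p of 0.0715), the wider list had 2 calls, the cell division list 2 and all genes 1851.

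Some log2 fold changes near 0 changed sign, 29 of 473 values in all. After median-of-ratios scaling, quantile normalization and voom they were 0.0014, 0.0232 and 0.0046 for DRD1, 0.0274, 0.0506 and 0.0328 for DML2, and 0.0268, 0.0282 and 0.0288 for DME. After quantile normalization MOM1 was at 0.0021 and NRPD1 at 0.0693. With a library left out the ranges were -0.0123 to 0.2042 for SUVH5, -0.0853 to 0.0741 for DML2, -0.0398 to 0.1618 for RDM1, -0.0398 to 0.0370 for DME, -0.0748 to 0.0996 for SUVH4, -0.0156 to 0.0846 for NRPE1, -0.0316 to 0.0930 for DMS3, -0.1380 to 0.0016 for IDM1, -0.0534 to 0.0207 for NRPD1 and -0.0836 to 0.0454 for DRD1. Depth limits SUVH5 most, at 49 to 72 reads, and the filter at a mean TPM of 5 left no value for genes under that level.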

Other observations

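Genes of the other small RNA pathways, which share enzyme families with RdDM, were measured in the same libraries. Of 12 such genes 11 were tested, and none passed with limma on TPM (1 lower at an unadjusted p under 0.05, none with voom), with a median log2 fold change of 0.03. RDR6, which makes double-stranded RNA for trans-acting small RNAs, was at 12.1, 10.5 and 13.1 TPM in wild type libraries against 9.51, 9.42 and 10.6 TPM in the line's, with overlap (log2 fold change -0.25, limma adjusted p = 0.14). AGO1, the main carrier of microRNAs, was at 84.5, 79.7 and 84.9 TPM against 88.0, 86.6 and 86.8 TPM, without overlap (log2 fold change 0.07, limma adjusted p = 0.397). RDR6 and AGO1 were chosen for mention after their values were seen.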
